A study of Mus musculus with 6 samples.

Results

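The T cell receptor complex and its co-receptors were followed in mouse hearts through 10 genes: *Cd3d*, *Cd3e*, *Cd3g*, *Cd247*, *Cd4*, *Cd8a*, *Cd2*, *Cd5*, *Cd6* and *Cd28*. Every non-control probe that carried one of these symbols in the deposited annotation was taken, whatever its signal, which gave 20 of the 56605 probes on the array and 10 of its 27307 gene symbols. The T cell receptor binds a peptide held by an MHC molecule with its own variable chains, which have no signalling part. The CD3 delta, epsilon and gamma chains and the zeta chain, encoded by *Cd247*, carry the signal into the cell through tyrosine motifs that the kinases LCK and ZAP70 act on. CD4 and CD8 are the co-receptors that bind class II and class I MHC and bring LCK along, while CD2, CD5, CD6 and CD28 set how strongly a T cell responds. In heart muscle these genes are known as marks of T cells, which are few there and which increase in number in failing hearts.

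RNA came from the myocardium of *Clk4*-cKO mice, males on the C57BL/6J background, that had received AAV9 carrying NEXN-WT (n = 3 animals) or NEXN-S437E (n = 3 animals). NEXN is the actin-binding protein nexilin, and the S437E form has a glutamate that mimics phosphorylation of a serine. By their labels both groups share the cardiomyocyte deletion of the kinase gene *Clk4*, which the study made with tamoxifen and α-MHC-MerCreMer, a Cre recombinase joined to parts of the estrogen receptor and driven by a cardiomyocyte promoter. The virus was given intravenously before tamoxifen, and its vector used the CMV promoter, which is not limited to cardiomyocytes, and also encoded GFP. Each animal had 1 single-colour array, and hearts with intact *Clk4* were not analysed here, so the comparison asks how the mimic differed from the wild-type protein in hearts that all carry the deletion by their labels. All values are log2 signals relative to the 75th percentile of their own array, and levels of different probes are not set against each other.

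The 75th percentile of the signal was 110 to 273 over the 6 arrays, and the share of spots with signal well above background was 41.9% to 47.8%. The *Clk4* probe A_52_P445387 differed by 0.13 on the log2 scale between the groups (standard error, SE, 0.18) and the *Nexn* probe A_52_P367520 by 0.02 (SE 0.23), both within the spread of the replicates. The *Clk4* probes A_52_P128262 and A_52_P368396, near background and not tested, read 0.45 and 0.60 higher with NEXN-S437E, the first without overlap between the groups. An *Esr1* probe, A_55_P2030883, was named after its values were seen, because MerCreMer contains estrogen receptor sequence. It read 3.13, 5.82 and 5.21 in the hearts given NEXN-WT. With NEXN-S437E it read −5.30, −5.63 and −5.41, never well above background and at least 255-fold lower. With each array left out in turn, this bound ran from 174-fold (without NEXN-WT replicate 2) to 442-fold (without NEXN-WT replicate 1). The *Esr1* probes A_52_P237077 and A_65_P17231 had log2 fold changes of −0.99 and −0.58. The remaining *Esr1* probes were not well above background on any array. Whether the hearts labelled NEXN-S437E carried the transgene was not tested, and each direction given here is between the groups as labelled. The cardiomyocyte markers were well above background on all 6 arrays for 10 of 10 genes. NEXN-WT replicate 1 lay apart, with a mean absolute difference of 0.38 from NEXN-WT replicate 2 and 0.44 from replicate 3, which differed from each other by 0.25, and with 0.19 to 0.29 within the NEXN-S437E group. NEXN-S437E replicate 1 was in slide row 1 with the whole NEXN-WT group, and the rest of its own group was in slide row 2.

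The probes read different places in their transcripts, and this bears on the values that follow. The next 4 probes are shown whole, since each belongs to a member that fell or, for *Cd247*, reads across a splice junction of a gene whose signal came from another probe. Probe letters are as deposited, 5′ to 3′.
Cd3d A_51_P285206: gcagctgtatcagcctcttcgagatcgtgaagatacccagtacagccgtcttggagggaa
Cd5 A_51_P167263: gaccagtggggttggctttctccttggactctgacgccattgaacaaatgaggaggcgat
Cd6 A_51_P313320: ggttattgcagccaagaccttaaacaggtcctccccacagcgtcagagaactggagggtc
Cd247 A_52_P173555: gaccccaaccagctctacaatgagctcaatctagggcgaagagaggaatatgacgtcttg
The 60 bases of the *Cd3d* probe lie within 232 bases of chromosome 9 in mm9 (44794171 to 44794402), so the probe crosses a splice junction, and those of the *Cd247* probe within 1019 bases of chromosome 1 (167786567 to 167787585). Both therefore match spliced RNA. The *Cd5* probe (chromosome 19, 10792701 to 10792760) and the *Cd6* probe (10863891 to 10863950 on the same chromosome) each match 1 unbroken stretch.

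A second set of probes carries AATAAA, the letters of the polyadenylation signal, and so sits where a transcript ends or could end. These windows are shown because they hold the detected probes of *Cd4* and *Cd28* and 1 of *Cd3e*, which did not pass the threshold, beside those of *Cd3d* and *Cd2*, which fell. Capitals mark AATAAA.
Cd3d A_66_P109615: ctgtgatcaaccAATAAAgacgtttccttc
Cd3e A_55_P2156229: taatgcaaaaggcAATAAAgtgtattggct
Cd4 A_55_P2013655: agctgacagaaaAATAAAggctataaataa
Cd28 A_55_P1979491: tgcttagcctgcAATAAAtatttattcatt
Cd2 A_55_P2077901: ttcgtcatttccAATAAAaagctgtgtgga
The *Cd2* probe A_66_P108659 holds the same window, since the pair share 51 of 60 bases. The first 30 bases of 2 probes without AATAAA are given too, the *Cd3g* probe and the *Cd247* probe with signal.
Cd3g A_55_P2072771: accctacaggtagactgcaagcagagagga
Cd247 A_55_P2487460: taggtactgtgtgtattgttctatgggtat
The *Cd3d*, *Cd3e*, *Cd4*, *Cd28* and *Cd2* probes with AATAAA start and end on mm9 at 44794452 and 44794511 of chromosome 9, 44806828 and 44806887 of chromosome 9, 124814711 and 124814770 of chromosome 6, 60830144 and 60830203 of chromosome 1, and 101079831 and 101079890 of chromosome 3. The *Cd3g* probe lies at 44777868 to 44777927 of chromosome 9 and the *Cd247* probe at 167791567 to 167791626 of chromosome 1, which is 3981 bases beyond the spliced one. Without a genome of that build, exons, introns and UTRs could not be assigned to the probes.

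Of the 20 probes, 12 probes of 9 genes were tested, having been well above background on every array of 1 group or both, and 7 probes were not well above background on any array. *Cd8a* had no tested probe. Signal fell with NEXN-S437E for *Cd3d*, *Cd3g*, *Cd2*, *Cd5* and *Cd6*, and did not pass the threshold for *Cd3e*, *Cd247*, *Cd4* and *Cd28*. At the study's threshold, a 2-fold change with an unadjusted p under 0.05, here in limma, 7 of the 12 tested probes were lower and 0 were higher, where 1.78% of all 22998 tested probes were lower. After Benjamini-Hochberg (BH) adjustment over all tested probes, 4 of the 12 passed, against 0.13% of all tested probes that passed and were lower. All 3 NEXN-S437E arrays lay below all 3 NEXN-WT arrays for the same 7 probes, as they did for 9.17% of all tested probes with a value on every array. In 5 of the 12 the filter was passed through the NEXN-WT group alone, which favours probes that are lower with NEXN-S437E, and 4 of those 5 were lower. Of the 7 tested probes that were well above background on all 6 arrays, 3 were lower and 1 passed the adjusted threshold in limma, where 1.14% of all probes of that kind were lower and 0.0805% passed the adjusted threshold and were lower. The other 3 that passed it were tested through the NEXN-WT group alone. The 3 lower probes with signal on all 6 arrays were *Cd3d* A_66_P109615 and the *Cd2* pair, whose probes overlap and are not independent. In whole hearts, fewer T cells and less RNA per T cell cannot be told apart.

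**Figure D1:**
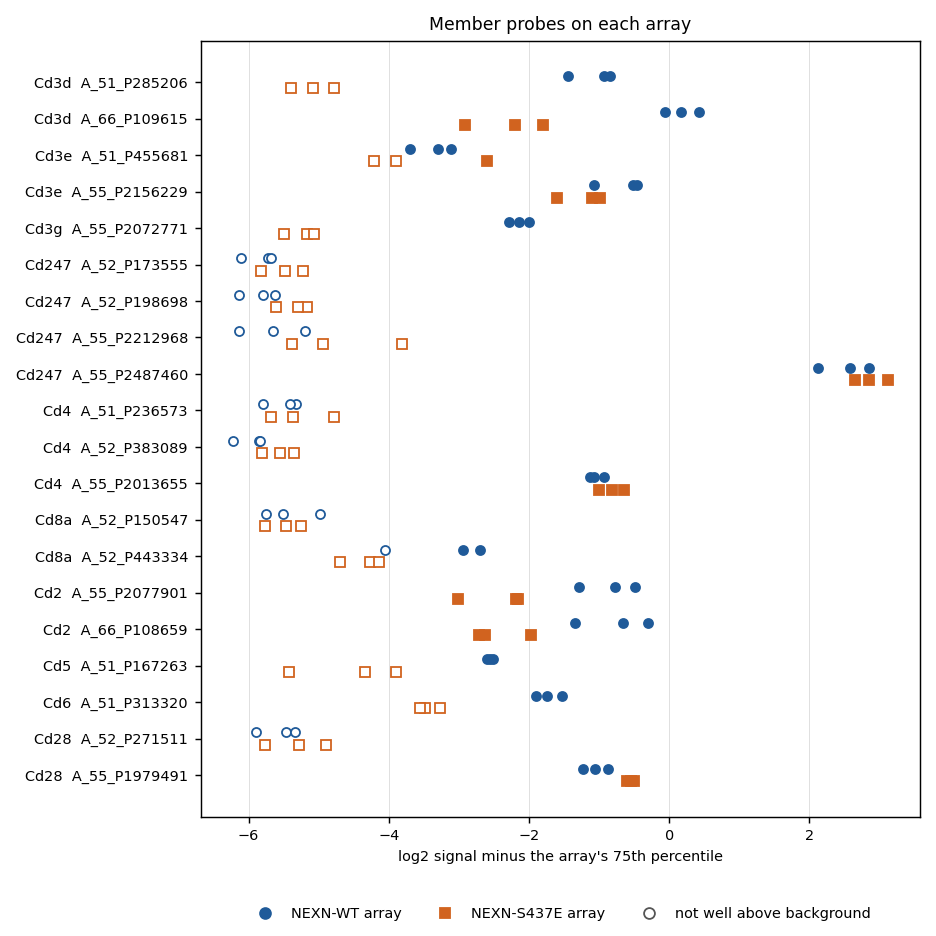
Log2 signal of the 20 member probes relative to the 75th percentile of each array, with circles for the 3 NEXN-WT arrays, squares for the 3 NEXN-S437E arrays and open symbols where the probe was not well above background. The groups are apart, with NEXN-S437E lower, for both *Cd3d* probes, *Cd3g*, both *Cd2* probes, *Cd5*, *Cd6* and the untested *Cd8a* probe A_52_P443334, while *Cd247*, *Cd4* and *Cd28* each have a single probe with signal.

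Among the CD3 chains, *Cd3d* fell with both of its probes. CD3 delta pairs with CD3 epsilon in the complex. Probe A_66_P109615, well above background on all 6 arrays, had values of −0.06, 0.17 and 0.42 with NEXN-WT and of −1.80, −2.92 and −2.20 with NEXN-S437E. The groups did not overlap, and the log2 fold change was −2.49 (SE 0.28, BH-adjusted p = 0.0221 in limma). The splice-crossing probe A_51_P285206 read −1.44, −0.93 and −0.84 with NEXN-WT, and −5.08, −4.78 and −5.40 with NEXN-S437E, where no array was well above background. It was at least 4.59-fold lower (BH-adjusted p = 0.00112 in limma). Such a bound replaces each dim value by the lowest signal that any well detected probe had on that array, unless the probe itself was higher, before the group means are compared. A bound has no interval of its own, and the p printed beside it comes from the fit to the values as read. With each array left out in turn, the bound of this *Cd3d* probe ran from 4.24-fold to 5.22-fold.

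*Cd3g*, whose product also pairs with CD3 epsilon, has 1 probe on the array. It had −2.29, −2.14 and −2.00 with NEXN-WT and −5.17, −5.06 and −5.49 with NEXN-S437E. All 3 NEXN-WT arrays were well above background and none of the NEXN-S437E arrays was, a drop of at least 2.18-fold (BH-adjusted p = 0.00112 in limma).

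*Cd3e* encodes the epsilon chain, which is part of both CD3 pairs, and neither of its probes passed the 2-fold threshold. Probe A_55_P2156229 had −1.07, −0.51 and −0.46 with NEXN-WT and −0.99, −1.10 and −1.59 with NEXN-S437E. The groups overlapped through NEXN-WT replicate 1, and the log2 fold change was −0.55 (95% interval −1.08 to −0.01, BH-adjusted p = 0.280 in limma). Probe A_51_P455681, which starts 366 bases from the end of the other, had −3.70, −3.30 and −3.11 with NEXN-WT and −2.60, −3.90 and −4.21 with NEXN-S437E. NEXN-S437E replicate 1 was its highest array and the only one of that group well above background. Its log2 fold change of −0.20 (95% interval −1.11 to 0.70, BH-adjusted p = 0.803 in limma) had no stable sign, with 0.12 without NEXN-S437E replicate 3 and 0.77 on slide row 1 alone.

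*Cd247* encodes the zeta chain, which carries the most signalling motifs of the complex and is also used by NK cell receptors. Of its 4 probes only A_55_P2487460 had signal, with 2.12, 2.59 and 2.85 with NEXN-WT and 3.12, 2.66 and 2.85 with NEXN-S437E. The groups overlapped and the log2 fold change was 0.36 (95% interval −0.15 to 0.86, BH-adjusted p = 0.416 in limma). The spliced probe A_52_P173555 and the probes A_52_P198698 and A_55_P2212968 were not well above background on any of the 6 arrays. The single probe with signal thus stands apart from the spliced one, and whether it reads zeta chain mRNA was not tested.

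**Figure D2:**
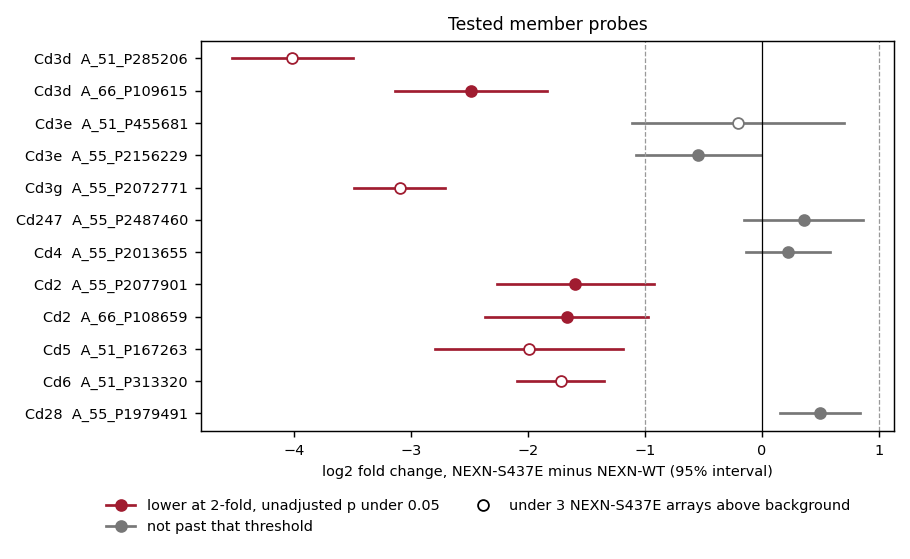
Log2 fold change of NEXN-S437E over NEXN-WT for the 12 tested member probes, with bars for the 95% interval from limma and dashed lines at 2-fold. Red marks the 7 probes lower at 2-fold with an unadjusted p under 0.05, from 5 genes. Open circles had fewer than 3 NEXN-S437E arrays above background, so that their fitted change rests in part on values at background.

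Of the co-receptors, *Cd4*, which marks helper T cells and some macrophages and dendritic cells, had −1.13, −0.93 and −1.07 with NEXN-WT and −1.01, −0.81 and −0.64 with NEXN-S437E on probe A_55_P2013655. The groups overlapped and the log2 fold change was 0.22 (95% interval −0.13 to 0.58, BH-adjusted p = 0.464 in limma). The *Cd4* probes A_51_P236573 and A_52_P383089 were not well above background on any array. *Cd8a*, the alpha chain of the co-receptor of cytotoxic T cells, had −4.05, −2.94 and −2.70 with NEXN-WT and −4.70, −4.26 and −4.15 with NEXN-S437E on probe A_52_P443334. Only 2 NEXN-WT arrays and none with NEXN-S437E had signal well above background, and it was not tested. The other *Cd8a* probe, A_52_P150547, stayed at background on every array. Its partner chain *Cd8b1*, which is not a member, had −1.35, −0.46 and 0.06 with NEXN-WT and −2.54, −2.81 and −3.78 with NEXN-S437E, a log2 fold change of −2.46 (SE 0.42, BH-adjusted p = 0.0821 in limma). Only 2 of the 3 NEXN-S437E arrays were well above background for *Cd8b1*, so it was tested through the NEXN-WT group alone.

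*Cd2*, *Cd5* and *Cd6*, surface receptors that adjust signalling at the contact with another cell, were all lower. *Cd2* encodes an adhesion receptor that binds CD48 and is also found on NK cells. Its probe A_66_P108659 had −1.34, −0.66 and −0.30 with NEXN-WT and −1.97, −2.71 and −2.63 with NEXN-S437E, and the groups did not overlap. The log2 fold change was −1.67 (SE 0.30, BH-adjusted p = 0.0865 in limma), and that of A_55_P2077901, which overlaps it in sequence and is not independent of it, was −1.60 (SE 0.29).

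*Cd6*, which binds ALCAM, had −1.90, −1.52 and −1.74 with NEXN-WT and −3.49, −3.56 and −3.28 with NEXN-S437E, where it was not well above background. It was at least 2.93-fold lower (BH-adjusted p = 0.00973 in limma). *Cd5*, which dampens receptor signalling and is also found on some B cells, had −2.56, −2.61 and −2.51 with NEXN-WT and −3.89, −5.43 and −4.34 with NEXN-S437E. It too was above background in the NEXN-WT hearts only, and was at least 1.64-fold lower (BH-adjusted p = 0.0853 in limma). *Cd5* and *Cd6* are neighbours on chromosome 19 in RefSeq's order of genes on GRCm38.p6.

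*Cd28*, the main costimulatory receptor for CD80 and CD86, went the other way without reaching 2-fold. Its probe A_55_P1979491 had −1.22, −1.05 and −0.87 with NEXN-WT and −0.61, −0.54 and −0.51 with NEXN-S437E. Every NEXN-S437E array lay above every NEXN-WT array, and the log2 fold change was 0.50 (95% interval 0.16 to 0.84, BH-adjusted p = 0.191 in limma). The other *Cd28* probe, A_52_P271511, placed 9217 bases from the first on the chromosome, had no array with signal well above background. *Ctla4* and *Icos*, the genes next to *Cd28*, were not tested.

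These calls depended on how the background was treated. With normexp background correction at an offset of 50, 1 member probe was lower in place of 7, *Cd3d* A_66_P109615 with a log2 fold change of −1.31 (BH-adjusted p = 0.0202 in limma), and the *Cd2* probes had −0.62 and −0.72. In that setting *Cd3d* A_51_P285206 had −0.90, *Cd6* −0.39, *Cd3g* −0.32 and *Cd5* −0.12. With an offset of 1, chosen after the data had been seen, 6 were lower. Slide row 2 held NEXN-S437E arrays alone, so with slide row as a block each fold rests on NEXN-S437E replicate 1 against the 3 NEXN-WT arrays and equals that on slide row 1 alone. With this block 7 were lower and 2 passed the adjusted threshold, *Cd3d* A_51_P285206 and *Cd3g*, each with an adjusted p of 0.0388 in limma. On slide row 1 alone, with the 1 NEXN-S437E array assumed to vary like the others, 7 were lower and 0 passed the adjusted threshold. Without NEXN-WT replicate 1, 7 were lower and 5 passed the adjusted threshold in limma, and without NEXN-WT replicate 2 these counts were 7 and 2. For a single probe, exact two-sided permutation of 3 against 3 arrays gives no p below 0.1.

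**Figure D3:**
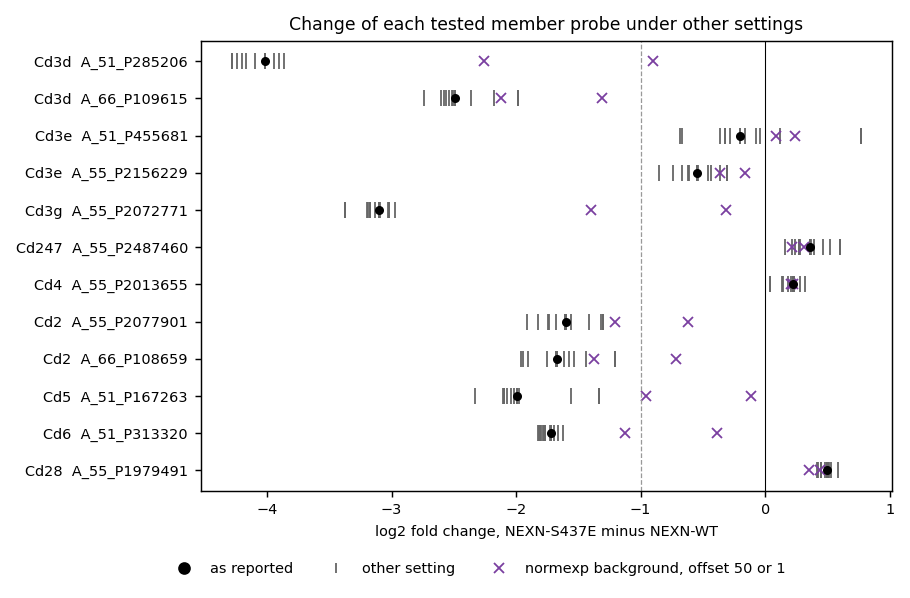
Log2 fold change of each tested member probe as reported (filled circle), under the other settings (ticks) and with normexp background correction at an offset of 50 or 1 (crosses). For each of the 7 lower probes the cross at an offset of 50 is the value nearest to 0, and *Cd3e* A_51_P455681 has values on both sides of 0.

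*Cd3g*, *Cd3d* and *Cd3e* follow each other on chromosome 9 in RefSeq's order of genes on GRCm38.p6, and their probes differed in response as given above. Promoter sequences were at hand for 6 of the 10 members, *Cd3d*, *Cd3e*, *Cd3g*, *Cd247*, *Cd8a* and *Cd5*, and not for *Cd4*, *Cd2*, *Cd6* and *Cd28*. The 250 bases before the start of the 3 neighbours are shown because these genes lie together and their probes did not all fall. Capitals mark AGGAAG and its reverse CTTCCT, a core that ETS factors bind.
Cd3g promoter, chr9:44980432-44980681, minus strand: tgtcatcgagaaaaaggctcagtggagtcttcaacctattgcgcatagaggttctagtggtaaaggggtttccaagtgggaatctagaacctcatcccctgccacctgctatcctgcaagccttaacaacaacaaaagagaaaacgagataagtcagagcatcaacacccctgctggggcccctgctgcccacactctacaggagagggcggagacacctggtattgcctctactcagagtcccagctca
Cd3d promoter, chr9:44981536-44981785, plus strand: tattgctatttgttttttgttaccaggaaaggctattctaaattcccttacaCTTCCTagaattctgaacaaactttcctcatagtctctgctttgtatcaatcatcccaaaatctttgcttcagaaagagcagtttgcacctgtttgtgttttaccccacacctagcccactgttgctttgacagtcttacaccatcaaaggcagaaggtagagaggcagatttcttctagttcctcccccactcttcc
Cd3e promoter, chr9:45009612-45009861, minus strand: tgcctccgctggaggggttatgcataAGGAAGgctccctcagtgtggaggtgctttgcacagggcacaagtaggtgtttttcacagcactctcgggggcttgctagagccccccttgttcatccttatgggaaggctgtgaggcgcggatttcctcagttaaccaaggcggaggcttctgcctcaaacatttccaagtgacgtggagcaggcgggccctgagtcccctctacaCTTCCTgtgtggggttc
On both strands, these letters occurred once in the *Cd3d* window, 2 times in that of *Cd3e* and 0 times in that of *Cd3g*, and 29.2% of 27025 mouse promoters of the same length held them. CAGNTG, the letters of an E-box, stood in the windows of *Cd3d* (1), *Cd3g* (2), *Cd247* (1) and *Cd5* (2), and in 44.5% of all promoters. TATAAA, found in 13.0% of promoters, and TGTGGT, a core bound by RUNX factors found in 14.2%, were in none (0) of the 6 windows. Such matches describe letters only.

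The variable chains that CD3 serves were read through probes of the T cell receptor loci. Of 128 such probes, 18 were well above background on any array, 7 were tested, 5 were lower and 0 higher, where 1.78% of all tested probes were lower. Of the 5, 3 were tested through the NEXN-WT group alone, and of the 4 with signal on all 6 arrays 2 were lower, where 1.14% of all such probes were. All 4 probes of the beta constant regions, which are near-identical copies whose probes may share RNA, were among the lower ones. The one with the largest fitted change, A_52_P102846 (chromosome 6, 41498256 to 41498315 in mm9), had 0.33, 0.88 and 1.42 with NEXN-WT and −1.20, −1.67 and −1.53 with NEXN-S437E, a log2 fold change of −2.34 (SE 0.28, BH-adjusted p = 0.0254 in limma). A_51_P210310 and A_51_P478172 had log2 fold changes of −1.95 and −2.19, the second with only 1 NEXN-S437E array above background, and A_55_P2744870 was at least 3.06-fold lower. The gamma constant probe A_51_P429241 was at least 1.21-fold lower. The constant-region probes of alpha and of delta, 1 each, were not well above background on any array, so the alpha constant region was not measured. Probes of alpha variable 1 and 2 had log2 fold changes of 0.44 and 0.54, which did not pass.

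**Figure D4:**
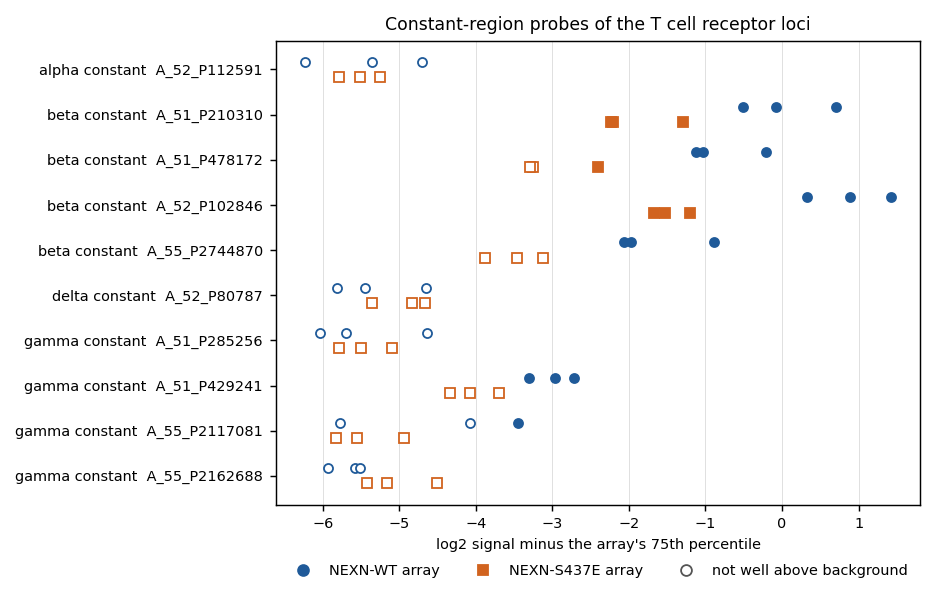
Log2 signal of the 10 constant-region probes of the T cell receptor loci relative to the 75th percentile of each array, with circles for NEXN-WT, squares for NEXN-S437E and open symbols where a probe was not well above background. The 4 beta probes are lower on every NEXN-S437E array than on any NEXN-WT array, and those of alpha and delta are open throughout.

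Downstream of the receptor, 5 of 14 tested genes of proximal signalling were lower and 0 higher, and the median change was −0.33 on the log2 scale. Over all 13747 tested genes, each by its brightest tested probe, 2.15% were lower, 0.771% were higher and the median was 0.07. *Lck*, the kinase that starts the signal, had −1.25, −0.43 and −0.57 with NEXN-WT and −2.85, −2.86 and −2.73 with NEXN-S437E. The groups did not overlap, and the log2 fold change was −2.07 (SE 0.22, BH-adjusted p = 0.0192 in limma). *Zap70*, which binds the phosphorylated zeta chain, had −1.06, −1.04 and −1.16 against −2.49, −3.89 and −3.56, a log2 fold change of −2.23 (SE 0.33, BH-adjusted p = 0.0608 in limma). The adaptor *Skap1* followed with −1.85. Both *Zap70* and *Skap1* were well above background on 1 of 3 NEXN-S437E arrays, so their changes are set in part by values at background. Of the 9 genes of the list with signal on all 6 arrays 1 was lower, *Lck*, against 1.43% of all tested genes of that kind. The other 9 tested genes of that list did not pass, among them *Fyn*, *Plcg1* and *Nfatc2* with log2 fold changes of −0.10, −0.02 and 0.07. *Ptprc*, the phosphatase CD45 of all white blood cells, had 4 tested probes with log2 fold changes from −1.19 to −0.01, of which 1 passed. With normexp at an offset of 50 the count fell from 5 to 0, and with the slide row as a block to 3.

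Of 16 other costimulatory and inhibitory receptors 2 were tested and 0 passed, *Lag3* with a log2 fold change of −0.60 and *Tnfrsf4* with −0.46, while 7 genes of that list, *Ctla4* and *Tigit* among them, were not well above background on any array. The ligands were all measured. Of 13 ligand and MHC genes 0 passed in either direction, with a median of −0.28, and the smallest p belonged to the class II genes *H2-Ab1*, *H2-Eb1* and *H2-Aa*, with log2 fold changes of −0.48, −0.57 and −0.48 (BH-adjusted p = 0.213 for *H2-Ab1* in limma). *Fcer1g*, a signalling chain that can stand in for zeta and is abundant in myeloid cells, had −0.04.

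Of the transcription factors of T cells 6 of 13 were tested and 1 was lower, *Tbx21*, the factor of type 1 helper and cytotoxic cells, at least 1.51-fold. *Tbx21* was tested through the NEXN-WT group alone, and of the 4 factors with signal on all 6 arrays 0 were lower. *Ikzf1* had −0.57, and *Bcl11b*, *Foxp3*, *Lef1*, *Tcf7* and *Tox* were not well above background on any array. Among the homing and cytokine receptors 5 of 13 tested genes fell and 0 rose, the median change being −0.71, against 2.15% of all tested genes lower. With signal on all 6 arrays 1 of 7 was lower, *Itgb7*, where 1.43% of all such genes were, and the other 4 calls were tested through the NEXN-WT group alone. *Cxcr6*, a chemokine receptor of activated T cells, had a log2 fold change of −2.66 (SE 0.21, BH-adjusted p = 0.00379 in limma). *Itgb7*, an integrin chain, and *Ccr7*, the receptor that guides cells to lymph nodes, had −1.52 and −1.85, and *Cxcr3* and *Il2rb*, named after their values were seen, had −1.65 and −2.36. The NEXN-S437E arrays above background were 2 of 3 for *Cxcr6* and *Cxcr3* and 1 of 3 for *Ccr7* and *Il2rb*, and *Il2rb* had −3.02 without NEXN-S437E replicate 1 and −1.56 without NEXN-S437E replicate 3.

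Genes of other cell types moved as well. Of the NK cell list 4 of 5 tested genes were lower, where 2.15% of all tested genes were. With signal on all 6 arrays 2 of 3 were lower, where 1.43% of all such genes were, and the other 2 calls were tested through the NEXN-WT group alone. The 4 were *Nkg7* with a log2 fold change of −2.79 (BH-adjusted p = 0.0485 in limma), *Gzma* with −1.58, *Klrd1* at least 1.94-fold and, named after its values were seen, *Gzmb* with −1.38. *Gzmb* had 1 NEXN-S437E array above background and a change of −2.08 without NEXN-WT replicate 1. The summed level of all 5, the log2 of the summed signals, was 3.97 to 4.64 with NEXN-WT and 3.76 to 4.13 with NEXN-S437E, and was set mostly by *Tyrobp*, also abundant in myeloid cells, at 3.65 to 4.34 and 3.68 to 4.07. The genes *Klrb1c*, *Klre1*, *Ncr1*, *Prf1* and *Xcl1* stayed at background on every array. Of the B and plasma cell list 1 of 3 tested genes was lower, also tested through the NEXN-WT group alone, *Jchain*, the joining chain of secreted antibodies, at least 4.13-fold, with −0.61 for *Cd79b* and 0.16 for *Mzb1*. Its summed level was −0.13 to 0.18 with NEXN-WT and −1.17 to −0.97 with NEXN-S437E, with *Blk*, *Cd79a*, *Fcrla*, *Ms4a1* and *Pax5* not above background on any array. Of the dendritic cell list 2 of 5 were lower, both tested through the NEXN-WT group alone, and of the 3 with signal on all 6 arrays 0 were. They were *Cd209a* at least 1.75-fold and *Itgax* at least 2.03-fold, with 0.39 for *Siglech*, a summed level of 1.90 to 1.96 against 1.68 to 2.21, and *Clec9a* and *Xcr1* at background. T cells express several genes of the NK cell list too, and the part of these cells in the result was not tested.

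Macrophage genes, all 12 tested, gave 0 calls and a median of 0.02, with log2 fold changes of 0.83 for *Lyve1*, −0.74 for *Fcgr1* and 0.27 for *Itgam* and a summed level of 7.66 to 8.05 against 7.89 to 7.98. Of 8 fibroblast genes, all with signal on all 6 arrays, 3 were lower, where 1.43% of all such genes were, *Col1a1* with −1.82, *Postn* with −2.98 (−2.13 without NEXN-WT replicate 1) and *Col1a2* with −1.49, with a median of −0.82 and a summed level of 9.12 to 9.81 against 8.70 to 8.82. All 10 cardiomyocyte genes had positive log2 fold changes and 0 passed, with a median of 0.42, *Myh6*, *Tnni3* and *Tnnt2* at 0.58, 0.60 and 0.43, and a summed level of 11.34 to 11.73 against 11.97 to 12.01. Of 7 endothelial genes 0 passed, with a median of 0.05, 0.22 for *Emcn*, −0.16 for *Tek*, 0.21 for *Vwf* and a summed level of 6.71 to 7.11 against 6.87 to 7.30. The part of these shifts in the values of the T cell genes was not tested.

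**Figure D5:**
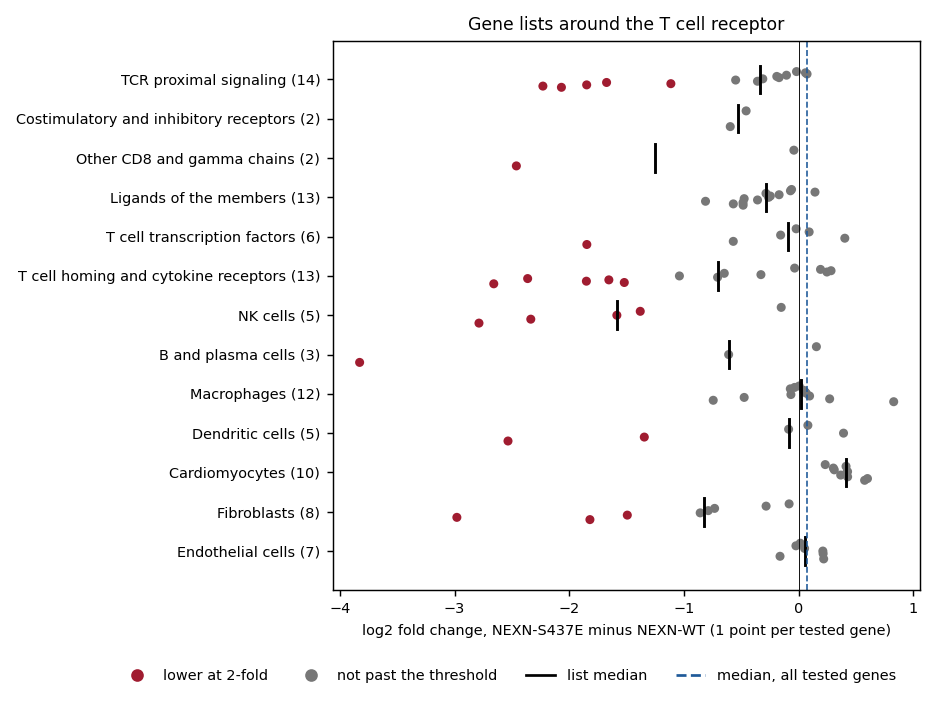
Log2 fold change of each tested gene of 13 lists, by its brightest tested probe, with red for genes lower at 2-fold and an unadjusted p under 0.05, a black line at the list median and a dashed line at the median of all tested genes (0.07). The lists with red points include proximal signalling (5 of 14), homing and cytokine receptors (5 of 13), NK cells (4 of 5) and fibroblasts (3 of 8), and the ligands, macrophages, cardiomyocytes and endothelial cells have none.

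The genes nearest over the 6 arrays to the mean of the tested CD3 chain probes were found from the root mean square difference between mean-centred log2 values. The reference was the mean of the 6 tested probes of *Cd3d*, *Cd3e*, *Cd3g* and *Cd247*, which ran from 0.52, 0.91 and 1.07 with NEXN-WT to −0.49, −0.92 and −1.08 with NEXN-S437E. The log2 fold changes of these probes ranged from −4.02 (*Cd3d* A_51_P285206) to 0.36 (*Cd247*), so their mean is not the pattern of each chain. The nearest were *Cxcr3* (0.18), *Zap70* probe A_55_P2153122 (0.20), *Dusp2* (0.23), *Ctsw* (0.25), *Nppa* probe A_52_P580582 (0.26), *Igfbp6* (0.26), *Ccl4* (0.28) and *Gm4841* (0.28), each as that difference. NEXN-S437E values at background entered the reference through *Cd3d* A_51_P285206, *Cd3g* and *Cd3e* A_51_P455681. Such values also entered the differences of *Zap70*, *Cxcr3*, *Ctsw* and *Ccl4*, so the order is not exact. *Dusp2* encodes a phosphatase induced in activated lymphocytes, *Ctsw* a protease of cytotoxic cells and *Ccl4* a chemokine. *Nppa*, the atrial natriuretic peptide of heart muscle, had values of 8.77, 8.57 and 8.77 with NEXN-WT and 7.56, 7.11 and 7.28 with NEXN-S437E, so the likeness was not limited to lymphocyte genes. All 8 share the arrays and the difference between the groups with the reference, so the likeness is a description.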

How the data were processed

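RNA from the hearts of 3 mice per group was measured on 1 Agilent 8x60K mouse array each. The authors extracted the scans with Feature Extraction 10.7.1.1 and deposited background-subtracted intensities on a linear scale, with flags that mark signal well above background and outlier spots. They also deposited log2 values normalized between arrays, used as an alternative, and their 6 columns hold the same sorted values, as quantile normalization gives. Coordinates in the files are on mm9, and symbols come from the array annotation.

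Control spots were left out, the 75th percentile of each array was subtracted on the log2 scale, outlier spots were dropped and the spots of a probe averaged. A probe counted as well above background on an array when most of its spots carried the flag, and was tested when this held on all 3 arrays of a group. limma 3.58.1 (lmFit, eBayes) (R 4.3.3; files read by data.table, version 1.17.8) was fitted to all 22998 such probes, with Benjamini-Hochberg adjustment over all of them. The 3 arrays per group limit the precision. Each limma p-value sets the group difference against the spread between these animals, moderated by that of all tested probes. Where no NEXN-S437E array was well above background, the spread in that group is one of values at background. Sequence work and figures used matplotlib 3.10.9, pandas 2.3.3 and numpy 2.4.6 under Python 3.11.15, with promoters and gene order from RefSeq on GRCm38.p6.

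All member probes are named, with, from each list, the 3 genes of smallest p, apart from some list genes that are not reported here. Members and lists were chosen with earlier results of these data known. The alternatives were other normalizations, backgrounds, filters, blocks, weights, a 1.5-fold threshold and each array left out; normexp at an offset of 1 and slide row 1 alone were chosen after the data had been seen.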

Additional observations from a re-analysis of the deposited data

How the results depend on the processing

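The counts of member probes lower, of member probes past the adjusted p, of proximal signalling genes lower, of genes of the other lists lower and of T cell receptor locus probes lower were 7, 4, 5, 17 and 5. With normexp at an offset of 50 they were 1, 1, 0, 6 and 2, and with only probes well above background on all 6 arrays they were 3, 1, 1, 6 and 2. The number past the adjusted p in limma was 2 without a filter on dim probes, 2 with the slide row as a block, 0 on slide row 1 alone and 9 with array weights. Those 9 included *Cd28*, higher by 0.51 (adjusted p = 0.0122 in limma), and *Cd3e* A_55_P2156229 at −0.85 (adjusted p = 0.0151 in limma). It was 0 with the methods' t-test after Benjamini-Hochberg adjustment, where 7 member probes were lower at an unadjusted p under 0.05. The signalling count was 3 with the methods' t-test, 3 with the slide row as a block and 3 on slide row 1 alone. With each array left out in turn, the 5 counts ranged from 7 to 7, from 2 (without NEXN-WT replicate 2) to 5, from 4 to 5, from 16 to 18 and from 4 to 5.

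*Cd3e* A_51_P455681 turned to a log2 fold change of 0.24 with normexp at an offset of 50, 0.085 at an offset of 1, 0.77 with the slide row as a block and on slide row 1 alone, which share their folds, and 0.12 without NEXN-S437E replicate 3 (range −0.69 to 0.12 with each array left out). The cause was not tested. Of 244 repeats of single member probes, 232 kept direction and side of the threshold, 7 fell below the threshold and 5 reversed. Same-numbered arrays did not deviate together (correlations of −0.15, −0.03 and −0.18), and the replicate number as a block left 7 probes lower and 3 past the adjusted p, against 4. The count of T cell receptor locus probes could not be had with 1 probe per gene, since the lower ones carry no gene symbol. Signal near background limits the size of the difference to a bound for 4 of the 12 tested member probes.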
